A study of Mus musculus with 2 samples.

Results

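The 30 genes described here encode the machinery by which phagocytes take up dead cells and other particles, process the cargo in phagosomes and pass antigen to MHC class I, the route called cross-presentation. The members were chosen by gene symbol. All 30 were found among the 32285 genes of the files. They comprise 5 oxidase subunits, 5 Rab GTPases, 6 SNAREs and related vesicle proteins including an endosomal aminopeptidase, 5 proteins of the endoplasmic reticulum (ER) channel and export route, 7 uptake receptors or factors of type 1 conventional dendritic cells (cDC1), and 2 lysosomal genes.

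Immune cells from subcutaneous CT26 tumours, a mouse colorectal carcinoma line, were profiled in BALB/c mice by droplet single-cell RNA sequencing (10x Chromium 3′ v3). The library named Arg was read from the series' design text as coming from mice fed an arginine-deficient diet of equal calories, and the library named Control from mice on normal diet. In both arms the mice were 5 weeks old at assignment, the diet ran for 1 week before the tumour cells were injected, tumours were taken on day 20, and CD45+ cells were enriched with magnetic beads. Each arm had 1 library, and no source used here gives the number of mice in it. No difference between diets could therefore be tested, and no p-value is printed.

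After filtering, 12928 Arg and 12736 Control cells remained, with medians of 8278 and 9994 unique molecular identifiers (UMIs, counts of captured transcripts) per cell, from deposited totals of 155927693 and 191505551 UMIs. The libraries shared 44 cell barcodes. Clusters were named from marker genes that were not members, and cells in clusters without a clear name made up 21.5% of the Arg and 12.3% of the Control library. The largest of these, cluster 3, held 1690 Arg and 399 Control cells (13.1% and 3.13% of the libraries). Pooled values of the macrophage and monocyte classes leave it out. The cDC1 class held 136 Arg and 155 Control cells in 3 clusters. All 10 cDC1 markers were detected in it, with summed levels of 3662 and 3942 CPM (the class's counts scaled to the same UMI total in every class), against 424 and 419 CPM in macrophages. Macrophage markers summed to 341 CPM (Arg) and 545 CPM (Control) in cDC1, where Gpnmb was at 0 in the Control library, and to 14473 and 15416 CPM in macrophages. The macrophage class held 4222 Arg and 5684 Control cells of 6 types, named here by marker genes, and its makeup differed: Arg1 Mmp12 Mmp13 macrophages were 45.0% of it in Arg and 13.2% in Control, and Cx3cr1 Ch25h macrophages 12.9% and 40.4%. CD45 enrichment and the marker-based names can shape such shares.

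In textbook accounts, cDC1 are the dendritic cells specialised in cross-presenting antigen from dying cells. CLEC9A on their surface binds actin exposed by dead cells, and the phagosomal NADPH oxidase, a complex around the membrane subunits CYBB and CYBA, makes superoxide in the phagosome. SEC22B brings ER membrane to the phagosome, the SEC61 channel and the ATPase VCP have been linked to the exit of antigen into the cytosol, and WDFY4 is needed by cDC1 to cross-present cell-bound antigen. Macrophages degrade cargo more fully and carry scavenger and Fc receptors that bind modified lipoproteins and antibody-coated particles.

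Stretches upstream of 5 members whose levels differed between cDC1 and macrophages are shown: the 3 genes whose levels were higher in cDC1 than in macrophages (Clec9a, Wdfy4, Rab43) and, of those higher in macrophages, the 2 Fc receptor genes (Fcgr1, Fcgr4). Each is the 250 bases before the RefSeq start site on GRCm38.p6, 5′ to 3′ on the gene's own strand. Capitals mark GAGGAA on either strand (TTCCTC on the other), the core bound by PU.1-type ETS factors, or TTCNNNGAA, the palindrome bound by STAT factors.
Clec9a, chr6:129408612-129408861, + strand: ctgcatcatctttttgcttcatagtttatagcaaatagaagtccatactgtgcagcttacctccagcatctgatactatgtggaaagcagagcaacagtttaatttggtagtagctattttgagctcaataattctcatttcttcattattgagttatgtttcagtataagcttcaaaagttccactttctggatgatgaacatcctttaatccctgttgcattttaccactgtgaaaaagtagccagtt
Wdfy4, chr14:33185067-33185316, - strand: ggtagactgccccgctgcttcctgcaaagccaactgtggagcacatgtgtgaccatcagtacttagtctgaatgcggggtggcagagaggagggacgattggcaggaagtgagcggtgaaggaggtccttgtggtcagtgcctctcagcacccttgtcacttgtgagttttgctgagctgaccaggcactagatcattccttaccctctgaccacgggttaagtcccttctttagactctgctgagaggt
Rab43, chr6:87812165-87812414, - strand: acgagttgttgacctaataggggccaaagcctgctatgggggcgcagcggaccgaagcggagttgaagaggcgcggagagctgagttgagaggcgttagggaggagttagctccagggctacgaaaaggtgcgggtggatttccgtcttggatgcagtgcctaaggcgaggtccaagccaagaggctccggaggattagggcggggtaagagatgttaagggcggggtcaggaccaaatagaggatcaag
Fcgr1, chr3:96293970-96294219, - strand: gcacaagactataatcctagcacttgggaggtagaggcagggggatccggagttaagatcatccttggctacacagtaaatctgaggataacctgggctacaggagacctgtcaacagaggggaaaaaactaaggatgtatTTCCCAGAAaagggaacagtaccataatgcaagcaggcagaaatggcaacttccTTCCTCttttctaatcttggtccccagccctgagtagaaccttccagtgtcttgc
Fcgr4, chr1:171018676-171018925, + strand: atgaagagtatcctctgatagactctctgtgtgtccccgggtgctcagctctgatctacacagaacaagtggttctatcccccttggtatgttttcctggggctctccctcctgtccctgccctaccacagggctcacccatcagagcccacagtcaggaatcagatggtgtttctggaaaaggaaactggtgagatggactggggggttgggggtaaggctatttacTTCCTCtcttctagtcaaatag
GAGGAA was found in 23.3% of all 32851 RefSeq promoter windows of this length and TTCNNNGAA in 7.02%. The Fcgr1 window held both, with first bases 55 and 109 bases before the start, and the Fcgr4 window held GAGGAA at 22 bases before it. Neither motif was in the windows printed for Clec9a, Wdfy4 and Rab43, although another RefSeq start of Rab43 had GAGGAA 12 bases upstream. Of the other members higher in macrophages, the Cybb window held none of the motifs searched, and the Lrp1 window held TTCNNNGAA, 232 bases before the start, but not GAGGAA. Over the 24 members with a RefSeq promoter, 6 held GAGGAA and 6 held TTCNNNGAA in at least 1 window. The E-box CACGTG, to which TFEB binds, was found for Ifi30 and Rab27a (6.02% of all windows), and TGACGTGG, an ER stress element, for Vcp alone (0.563%). These are letter matches only, and no binding was measured.

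On GRCm38, Clec9a lies at chr6:129408862-129424763, Wdfy4 at chr14:32959547-33185508 and Rab43 at chr6:87788853-87812164. Fcgr1 lies at chr3:96282909-96293969, Fcgr4 at chr1:171018920-171029761, Cd36 at chr5:17781690-17888801 and Cybb at chrX:9435252-9487771. These positions are from GENCODE M21, which holds 32158 of the 32285 gene identifiers in the files. The values rest on the gene models used in the counting, which can differ from these. Clec9a overlaps Clec1b and Rab43 overlaps 3 gene models on the same strand (Gm45140, Gm44423 and 9930120I10Rik) in GENCODE M21, so some of their UMIs could have been assigned elsewhere or left out by the counting.

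Levels below are CPM of a class's summed UMIs, with exact Poisson 95% intervals that cover counting error only, not differences between mice. Reads came from transcript 3′ ends, and levels are compared between cell classes for 1 gene at a time, never between genes. A gene was called measured where its mean over the groups compared reached 10 CPM. Where classes are ranked for a member, the ranking is among the 11 classes with 50 or more cells in each library. It leaves out B lineage cells and fibroblasts. Ratios are log2 of (CPM + 5), which understates the difference of genes at low levels.

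**Figure D1:**
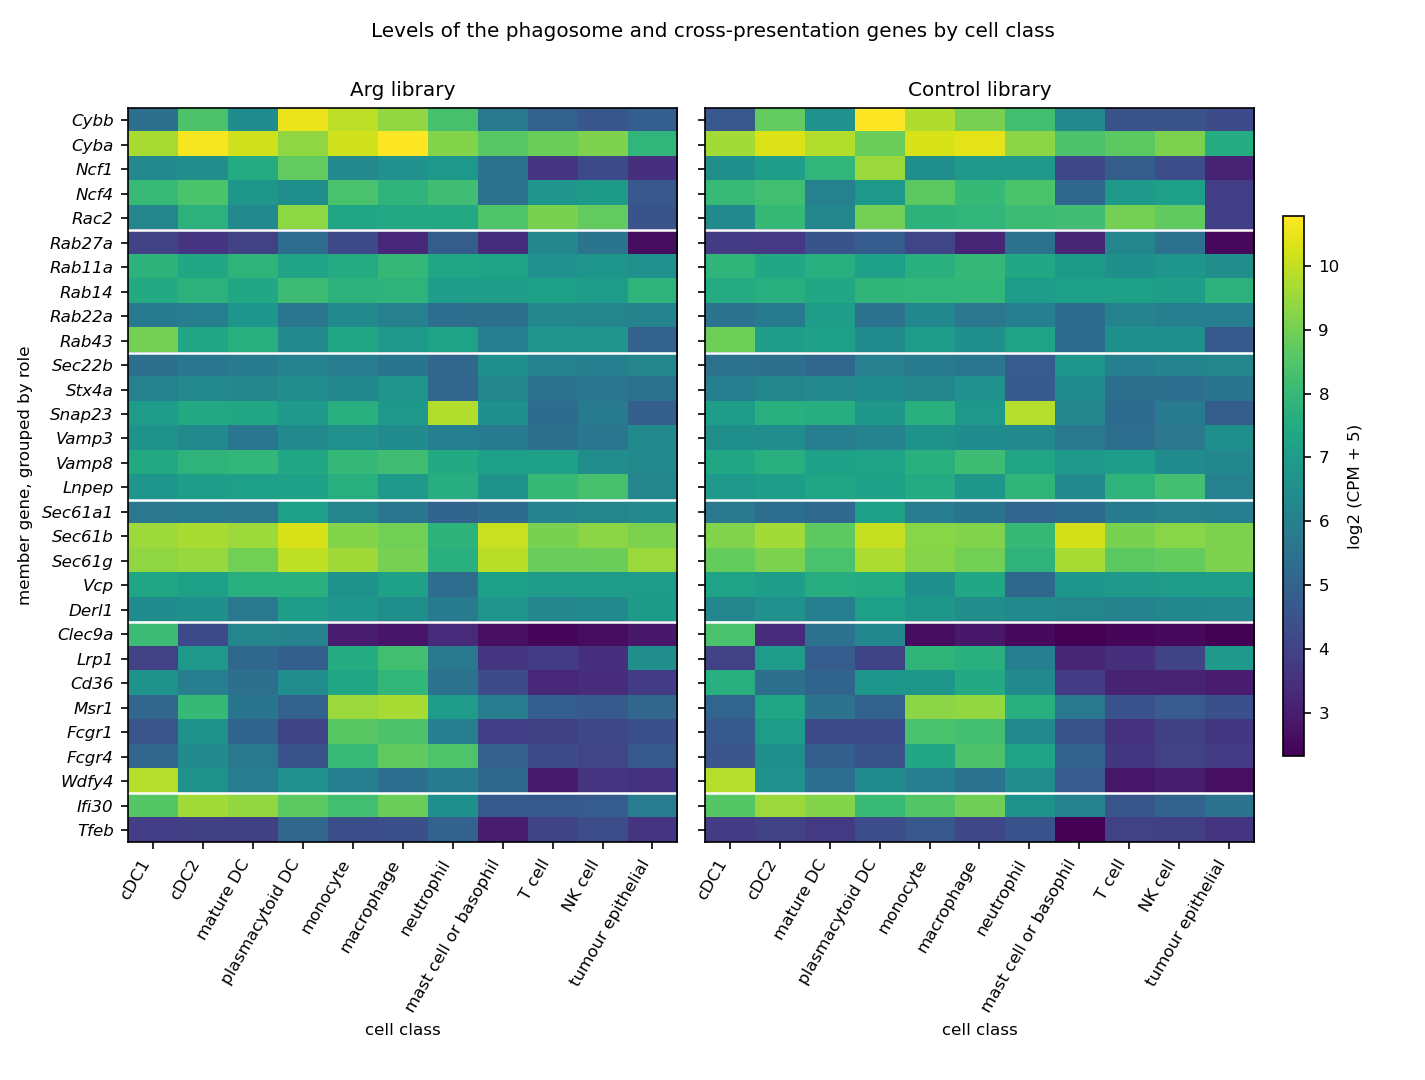
Each member's level (colour, log2 of CPM + 5) in 11 cell classes (columns), with the Arg library on the left and the Control library on the right and white lines between the roles. Clec9a, Wdfy4 and Rab43 are brightest in cDC1, Snap23 in neutrophils and Cybb in plasmacytoid dendritic cells in both libraries, while Rab11a, Rab14, Rab22a and Derl1 vary less from class to class.

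The members differed widely in how far they varied between classes. From the highest to the lowest of 11 classes, the median log2 ratio was 3.27 over the 30 members and 2.36 over 8392 measured genes. The oxidase subunits (4.99) and the uptake receptors and cDC1 factor (4.76) spanned the most, whereas the Rab GTPases (1.56), SNAREs and aminopeptidase (1.79) and ER channel genes (2.09) had medians below that of all genes, although Rab27a (3.66), Rab43 (4.14) and Snap23 (4.98) each spanned more.

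Against macrophages, 3 members were higher in cDC1 and 6 were lower, by at least 2-fold in each library, of 29 measured. Over all 7792 genes measured in that comparison, 6.89% were that much higher and 11% that much lower in cDC1, so 3 of 29 higher and 6 of 29 lower are to be read against those shares. The members' median log2 ratio was -0.20 (Arg) and -0.19 (Control), against 0.04 and -0.00 over all genes. The other 20 measured members did not pass 2-fold in the same direction in each library.

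Clec9a, the dead-cell receptor, stood at 275 CPM (95% interval 254 to 298) in Arg cDC1 and 325 CPM (304 to 346) in Control cDC1. In macrophages it was at 2.03 and 2.42 CPM, so that cDC1 held 135-fold (109 to 170) and 134-fold (114 to 159) more. Mature dendritic cells had 67.4 CPM (Arg) and 39.5 CPM (Control), plasmacytoid dendritic cells 63.8 and 72.5 CPM, and cDC2 13.7 and 5.56 CPM. Neither library's cDC1 interval overlapped that of another class.

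Wdfy4, the BEACH-domain protein required for cross-presentation by cDC1, stood at 918 CPM (879 to 958) in Arg and 903 CPM (869 to 938) in Control cDC1. The next class was cDC2, at 96.2 and 93.2 CPM among classes of 50 or more cells in each library. B lineage cells, with only 53 and 31 cells, had 167 and 178 CPM. Macrophages had 38.0 and 41.1 CPM, and the cDC1 to macrophage ratio was 24.1 (22.6 to 25.7) and 21.9 (20.8 to 23.1).

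Rab43, a Golgi-associated GTPase linked to cross-presentation by cDC1, stood at 508 CPM (480 to 538) and 478 CPM (453 to 504) in cDC1. Mature dendritic cells had 193 and 139 CPM, macrophages 114 and 90.4 CPM and T cells 102 and 89.0 CPM. Its ratio of cDC1 over macrophages was 4.46 (4.19 to 4.76) in Arg and 5.29 (4.99 to 5.60) in Control. Unlike Clec9a, it was well above 0 in every class, and cDC1 stood above that common level.

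Of the other Rab GTPases, Rab11a, Rab14 and Rab22a did not pass 2-fold in the same direction in each library. Rab11a, of recycling endosomes, was at 215 and 226 CPM in cDC1 against 242 and 244 CPM in macrophages, and Rab14 at 176 and 179 against 224 and 237 CPM. Rab22a, of early and recycling endosomes, was at 50.3 and 41.8 CPM in cDC1 and was highest in mature dendritic cells (104 and 128 CPM). Rab27a, which brings oxidase-bearing vesicles to phagosomes and lytic granules to the membrane of killer cells, was highest in T cells (69.8 and 68.8 CPM) and NK cells (43.2 and 40.1 CPM), and at 10.8 and 9.25 CPM in cDC1 and 4.53 and 4.12 CPM in macrophages it was not measured in that comparison.

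**Figure D2:**
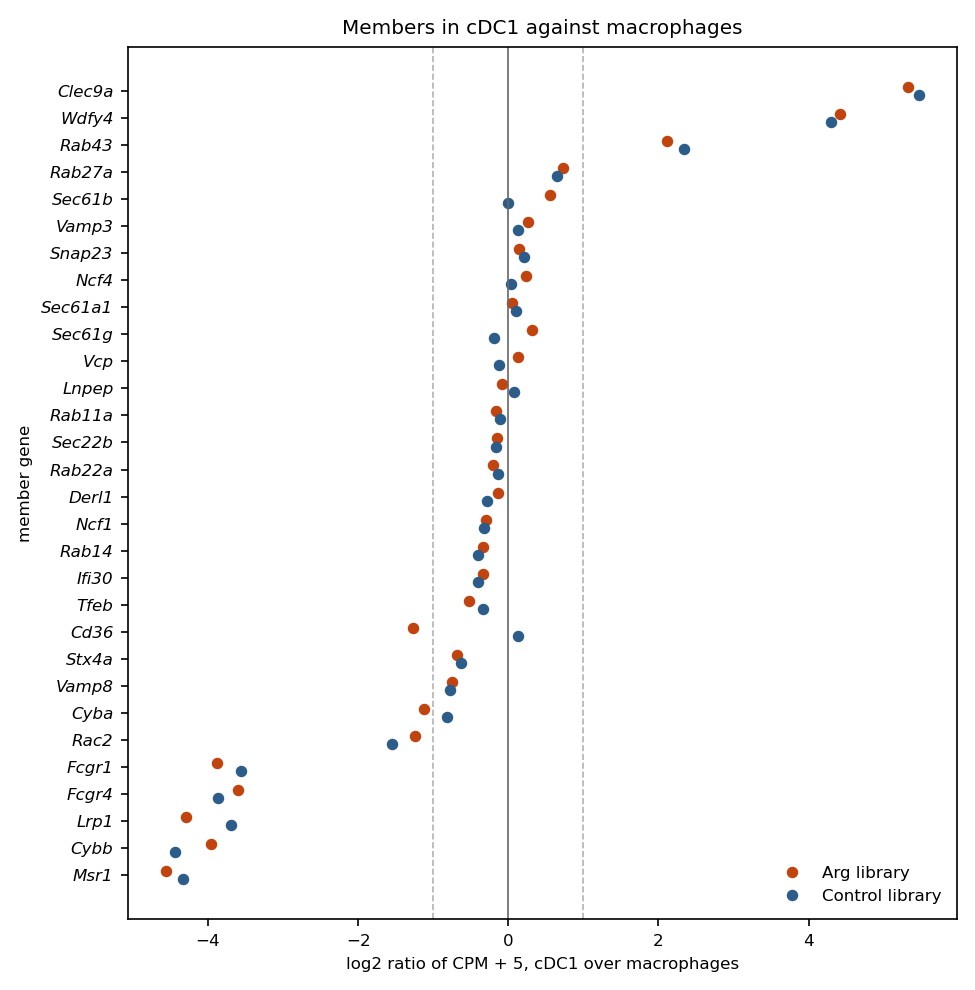
Log2 ratio of cDC1 over macrophages (horizontal axis, from CPM + 5) for each member (rows, ordered by the mean of the libraries), with 1 point per library and dashed lines at 2-fold. Clec9a, Wdfy4 and Rab43 lie to the right and Msr1, Cybb, Lrp1, Fcgr4, Fcgr1 and Rac2 to the left in each library, while the points of Cd36 fall at -1.28 (Arg) and 0.13 (Control).

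The oxidase subunits did not move as 1 group. Cybb, the catalytic subunit, was at 38.6 CPM (31.0 to 47.5) in Arg cDC1 and 19.5 CPM (14.8 to 25.3) in Control cDC1, against 675 and 525 CPM in macrophages and 984 and 863 CPM in monocytes. T cells, which carried 374 and 400 CPM of summed macrophage markers, had 26.1 and 17.2 CPM of Cybb. The level in cDC1 was therefore close to that of a class with little of the gene, and how much of it was free RNA was not tested. Plasmacytoid dendritic cells had the most of the ranked classes, 1492 and 1725 CPM.

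Cyba, the partner of CYBB in the membrane, was by contrast at 803 and 773 CPM in cDC1, less than in macrophages (1754 and 1370 CPM) and cDC2 (1620 and 1288 CPM) but not by 2-fold in each library. Ncf4, a cytosolic subunit, was at 263 and 259 CPM in cDC1 and 224 and 252 CPM in macrophages. Ncf1, the cytosolic organiser subunit, was at 73.7 and 88.4 CPM against 91.6 and 112 CPM, and was highest in plasmacytoid dendritic cells (424 and 724 CPM). Rac2, the GTPase that activates the complex, was lower in cDC1 (67.2 and 76.8 CPM) than in macrophages (166 and 233 CPM) and was highest in plasmacytoid dendritic cells (647 and 514 CPM) and T cells (534 and 509 CPM). When cluster 11.7, a dendritic cluster left unnamed because T cell markers also stood out in it, was added to cDC1, the log2 ratio of Rac2 was -0.30 in Arg and -1.08 in Control and no longer passed 2-fold in each library.

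The uptake receptors other than Clec9a were mostly macrophage or monocyte genes. Msr1, a class A scavenger receptor, was at 29.5 and 29.1 CPM in cDC1 and 809 and 680 CPM in macrophages. Lrp1, the receptor for apoptotic cells and protease complexes, was at 10.4 and 10.97 CPM in cDC1 and 296 and 202 CPM in macrophages. Fcgr1 and Fcgr4, activating receptors for IgG, were at 18.2 and 20.9 CPM and at 29.5 and 18.5 CPM in cDC1, against 336 and 301 CPM and 413 and 337 CPM in macrophages. These 4 genes were at 0.0351 to 0.0714 of the macrophage level in the cDC1 of each library.

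Cd36, a scavenger receptor for oxidised lipids and apoptotic cells, was the exception among them. In Control cDC1 it stood at 193 CPM (178 to 210), next to 176 CPM in Control macrophages, and in Arg cDC1 at 94.1 CPM (82.0 to 108), below 235 CPM in Arg macrophages. Its cDC1 to macrophage log2 ratio was thus -1.28 in Arg and 0.13 in Control.

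None of the SNAREs, ER genes and lysosomal genes passed 2-fold in the same direction in each library between cDC1 and macrophages. Among the SNAREs, Vamp8 and Stx4a were furthest below macrophages. Sec22b was at 38.6 and 40.1 CPM in cDC1 and 43.3 and 45.4 CPM in macrophages. Vamp3 and Vamp8, SNAREs of endosomes, were at 95.8 and 88.8 CPM and at 170 and 160 CPM in cDC1, against 78.8 and 81.0 CPM and 289 and 277 CPM in macrophages. Stx4a, a SNARE of the plasma membrane, was at 61.1 and 57.9 CPM in cDC1 and 102 and 92.3 CPM in macrophages. Lnpep, the endosomal aminopeptidase IRAP that trims peptides, was at 105 and 113 CPM in cDC1, near the 111 and 107 CPM of macrophages, and highest in NK cells (315 and 299 CPM).

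Snap23, the SNARE that drives fusion at the phagosome and plasma membrane, was at 120 and 127 CPM in cDC1 and 109 and 109 CPM in macrophages. Neutrophils stood apart with 891 CPM (815 to 972) and 919 CPM (865 to 976), and no other ranked class exceeded 201 CPM.

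Among the ER genes, Sec61a1, which forms the pore, was at 46.4 and 47.6 CPM in cDC1 and 44.5 and 43.8 CPM in macrophages. Sec61b was at 737 and 575 CPM against 500 and 575 CPM, and Sec61g at 655 and 437 CPM against 525 and 500 CPM. Vcp was at 152 and 145 CPM against 138 and 158 CPM, and Derl1, of the retrotranslocation complex, at 79.3 and 70.3 CPM against 87.5 and 86.2 CPM. Plasmacytoid dendritic cells had the highest Sec61a1 of the ranked classes in each library (132 and 133 CPM).

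Ifi30, the lysosomal thiol reductase GILT that unfolds antigen, was at 369 and 368 CPM in cDC1 and 468 and 489 CPM in macrophages, and highest in cDC2 (769 and 732 CPM). Tfeb, the master transcription factor of lysosome genes, was at 9.54 and 8.91 CPM in cDC1 and 15.9 and 12.6 CPM in macrophages. It was never above 29.3 CPM in a ranked class.

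Shares of cells with a UMI were also compared. After each cell was thinned to 2000 UMIs, which left out 7 Arg and 1 Control cDC1, Clec9a was found in 45.0% of Arg cDC1 (58 of 129, exact 95% interval 36.2 to 54.0) and 45.5% of Control cDC1 (70 of 154, 37.4 to 53.7). In macrophages the share was 0.417% and 0.313%, and in T cells, which should lack the gene, 0.0582% and 0.0981%. Unthinned shares in cDC1 were 87.5% and 96.1%, with median depths of 17006.5 and 18378 UMIs in cDC1 against 6768 and 7661 in T cells. Wdfy4 was found in 77.5% and 79.9% of thinned cDC1 and 8.02% and 8.02% of macrophages, and Rab43 in 65.9% and 63.0% of cDC1 and 20.6% and 15.9% of macrophages. Cybb was found in 2.33% and 3.25% of thinned cDC1, no more than in T cells (4.48% and 3.29%), against 57.6% and 56.9% of macrophages and 94.4% and 94.9% of plasmacytoid dendritic cells.

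**Figure D3:**
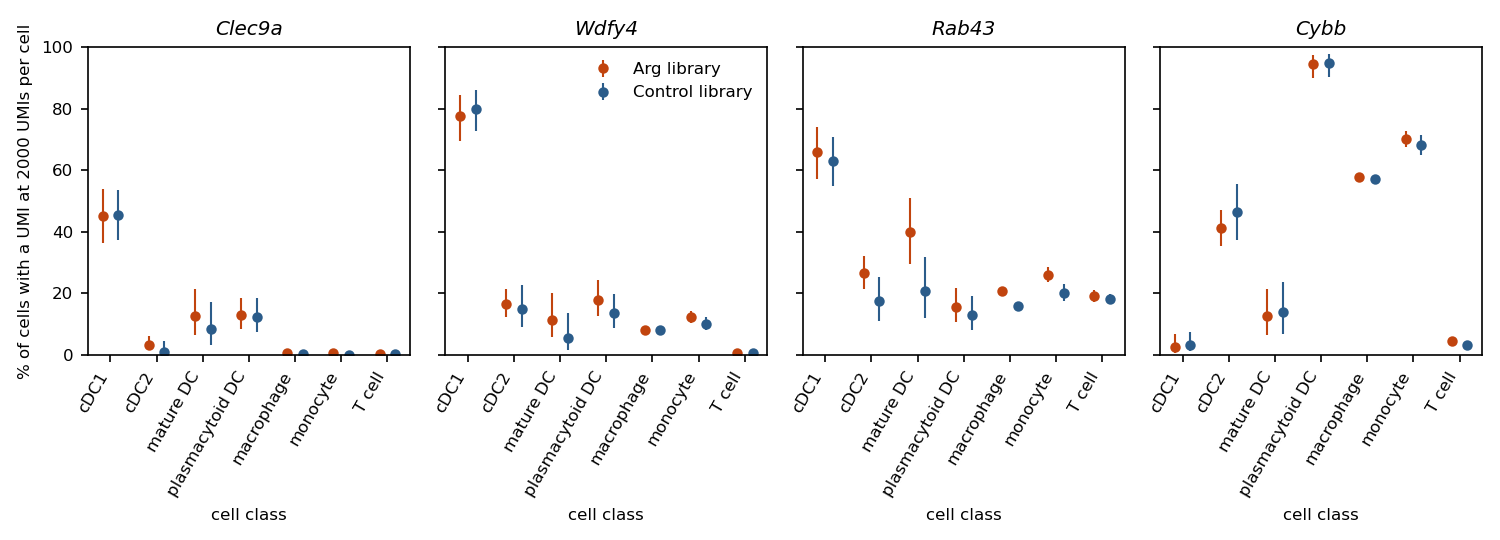
Share of cells with at least 1 UMI of Clec9a, Wdfy4, Rab43 or Cybb after thinning every cell to 2000 UMIs (vertical axis, percent), by cell class and library, with exact binomial 95% intervals. For Clec9a the cDC1 points lie at 45.0% and 45.5% and those of macrophages under 1%, whereas for Cybb cDC1 lie beside T cells and plasmacytoid dendritic cells near 95%.

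The same contrast was seen against each macrophage and monocyte type taken alone. Clec9a, Wdfy4 and Rab43 were more than 2-fold higher in cDC1 than in each of the 6 macrophage types, the 2 monocyte types and the unnamed cluster 3 (led by Ly6i and Cxcl9), in each library. Over all genes, the shares that much higher and lower in cDC1 were 11.9% and 11.4% against Arg1 Mmp12 Mmp13, 8.01% and 9.56% against Cx3cr1 Ch25h, and 7.81% and 13.6% against Folr2 Cd163 macrophages. They were 8.2% and 11.4% against Nos2 C1q, 7.13% and 10% against cycling, and 9.08% and 10.8% against interferon-stimulated macrophages. Against Ace Treml4 monocytes they were 9.42% and 12.6%, against Vcan Thbs1 F10 monocytes 14.2% and 14%, and against cluster 3 7.19% and 10.3%. Against the Vcan Thbs1 F10 monocytes Ifi30 joined them. Cybb, Lrp1, Msr1, Fcgr1 and Fcgr4 were more than 2-fold lower in cDC1 in each of these comparisons. Rac2 did not pass against the Arg1 Mmp12 Mmp13 macrophages and the Vcan Thbs1 F10 monocytes, Cyba passed as lower against the Nos2 C1q and interferon-stimulated macrophages, and Vamp8 against the Nos2 C1q macrophages. The smallest Rab43 log2 ratio among the named types was 1.47, against Nos2 C1q macrophages in Control, and against cluster 3 it was 1.32 and 1.33.

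The division was the same against cDC2, the dendritic cells that mainly present to CD4 T cells: 3 members were higher in cDC1 (Rab43, Clec9a, Wdfy4) and 6 lower (Cybb, Rac2, Lrp1, Msr1, Fcgr1, Fcgr4) of 28 measured, where 5.8% of 7468 genes were higher and 7.16% lower. In cDC2 Cybb was at 339 and 430 CPM and Msr1 at 252 and 152 CPM. Monocyte markers summed to 1993 and 2982 CPM in cDC2 and 782 and 746 CPM in cDC1, and their part in these differences was not tested. Against plasmacytoid dendritic cells, 4 members were higher in cDC1 (Ncf4, Rab43, Clec9a, Wdfy4) and 4 lower (Cybb, Ncf1, Rac2, Sec61a1) of 30, where 8.58% of 8020 genes were higher and 15.4% lower. Against mature dendritic cells, the migratory state marked by Ccr7, 5 members were higher in cDC1 (Ncf4, Rab43, Clec9a, Cd36, Wdfy4) and Ncf1 was lower, of 29, where 11.3% of 7473 genes were higher and 9.45% lower. Against the monocyte class 3 and 6 of 30 passed, the same genes as against macrophages, where 10.1% of 7518 genes were higher and 13.5% lower. Against T cells 10 of 29 were higher and 2 (Rac2 and Rab27a) lower, where 8.67% of 8118 genes were higher and 14.2% lower.

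Within cDC1, the level of Clec9a ranged more widely over the 3 clusters than between the libraries. It was at 408 CPM (346 to 478) in Arg and 443 CPM (405 to 484) in Control in cluster 11.5, at 274 and 286 CPM in cluster 11.2, and at 211 and 228 CPM in cluster 11.6, whose leading genes include the cell-cycle genes Pclaf and Spc24. Rab43 was also lowest in cluster 11.6 (393 and 332 CPM) and Wdfy4 too (813 and 716 CPM). Cluster 11.5 was 15.4% of Arg and 42.6% of Control cDC1, so class sums of these genes depend on the mix.

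The macrophage types differed among themselves in several members. Cybb was highest in Nos2 C1q macrophages (1207 and 972 CPM) and lowest in Arg1 Mmp12 Mmp13 macrophages (504 and 358 CPM). Fcgr4 was likewise highest in Nos2 C1q macrophages (692 and 850 CPM) and lowest in Folr2 Cd163 macrophages of Arg (273 CPM) and Arg1 Mmp12 Mmp13 macrophages of Control (161 CPM). Lrp1 and Cd36 were high in the Arg1 Mmp12 Mmp13 type (402 and 307 CPM, 284 and 300 CPM), and Msr1 reached 1016 and 819 CPM in interferon-stimulated macrophages and 1084 and 893 CPM in Vcan Thbs1 F10 monocytes. Fcgr1 was highest in interferon-stimulated macrophages (614 and 493 CPM), although cluster 3 (364 and 467 CPM) lay close to them in Control.

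In a wider list of 79 further genes of the same pathways, 4 of 69 measured genes were higher in cDC1 than in macrophages and 21 lower, where 6.89% of all genes were higher and 11% lower. The 4 were Ly75, the DEC-205 uptake receptor (74.1 and 72.3 CPM in cDC1, 4.51 and 1.38 CPM in macrophages), the ER stress gene Herpud1, and the GTPase genes Rab7b and Rab39. Of 14 measured uptake receptors 10 were lower, and of 11 acidification and lysosome genes 8 were lower, unlike Ifi30 and Tfeb, neither of which passed. Of 13 Rab and Arf GTPases 2 were higher and 2 lower, of 13 ER genes 1 was higher, and of 12 SNAREs none passed in either direction. The 5 with the most extreme ratios were the mannose receptor gene Mrc1 (17.8 and 26.4 CPM in cDC1, 1184 and 900 CPM in macrophages), the lysosomal protease gene Lgmn (62.0 and 129 against 1899 and 1945 CPM), the complement receptor gene Itgam (19.9 and 21.9 against 557 and 449 CPM), the lectin gene Clec4n (31.2 and 14.05 against 697 and 336 CPM) and the scavenger receptor gene Stab1 (2.17 and 11.3 against 162 and 170 CPM).

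Between the libraries, the members were close to equal in macrophages. None of 28 measured members passed 1.5-fold, where 8.8% of 7705 genes did. In all, 16 were higher in Arg and 12 lower, with a median log2 ratio of 0.04 against 0.00 over all genes. Lrp1 was furthest apart, at 296 CPM (291 to 302) in Arg and 202 CPM (199 to 205) in Control, a log2 ratio of 0.54. Cd36 followed (235 and 176 CPM, 0.41), then Cybb (675 and 525 CPM, 0.36) and Cyba (1754 and 1370 CPM, 0.36), and Rac2 was the lowest (166 and 233 CPM, -0.48). With both libraries set to 1 common mix of macrophage clusters, the ratio of Lrp1 was 0.18 and that of Cd36 0.11. The 2 members not measured in macrophages were Clec9a and Rab27a.

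Fcgr4, whose product is the mouse Fc receptor for IgG2a and IgG2b, passed 1.5-fold between the libraries in more classes and types than any other member. Some of these groups overlap, as the Ace Treml4 type lies within the monocyte class, and Fcgr4 was low in T cells. In Arg1 Mmp12 Mmp13 macrophages it was at 299 CPM (291 to 306) in 1901 Arg cells and 161 CPM (153 to 170) in 749 Control cells, a ratio of 1.85 (1.74 to 1.97). In interferon-stimulated macrophages it was at 441 and 282 CPM (1.56, 1.46 to 1.68), and in Ace Treml4 monocytes at 270 and 170 CPM (1.59, 1.46 to 1.73). The counting intervals did not overlap in these 3 types. It was not higher in Arg everywhere: Nos2 C1q macrophages had 692 CPM in Arg and 850 CPM in Control, and cluster 3 had 480 and 534 CPM. No member passed 1.5-fold in the Nos2 C1q, Cx3cr1 Ch25h or Vcan Thbs1 F10 types or in cluster 3, where 4.42%, 3.45%, 8.97% and 3.83% of all genes did.

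The share of all genes past 1.5-fold in those types was 6.25% (Arg1 Mmp12 Mmp13), 6.17% (interferon-stimulated) and 4.9% (Ace Treml4), and Fcgr4 was the only one of 28, 28 and 29 measured members past it. The Ace Treml4 type was 72.18% of the monocyte class in Arg and 67.65% in Control, so the class largely repeats that type. In the class as a whole Fcgr4 stood at 255 CPM (244 to 266) and 164 CPM (154 to 174), a log2 ratio of 0.63. It was alone among 29 measured members, where 4.48% of 7039 genes passed. Thinned shares of monocytes with a UMI were 35.8% and 23.7%. At a finer clustering the monocyte ratio was 0.34 and that of the interferon-stimulated type -0.15, whereas in the Arg1 Mmp12 Mmp13 type it was between 0.68 and 0.93 over 13 alternatives. In the Ace Treml4 type it was between 0.35 and 1.196 over 12 alternatives, so that call was lost under some.

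Neutrophils had the widest Fcgr4 ratio, with 344 CPM (298 to 396) in 227 Arg cells and 142 CPM (122 to 166) in 433 Control cells, 2.42-fold (1.95 to 2.99). The thinned share of cells was 46.7% (64 of 137) and 22.4% (57 of 255). Rac2, Rab27a, Cd36, Msr1 and Wdfy4 were past 1.5-fold lower in Arg neutrophils, but 25% of 6266 genes passed that fold in this class. Its cells were shallow (medians of 2203 and 2146 UMIs), its neutrophil markers summed to 33016 and 49020 CPM, and its membership changed with the clustering. Fcgr4 in T cells also passed, at low levels (14.6 and 7.91 CPM, log2 0.60, where 5.1% of 8136 genes did). The summed macrophage markers of T cells, given above, were not higher in Arg. What part of this Fcgr4 was free RNA was not tested.

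**Figure D4:**
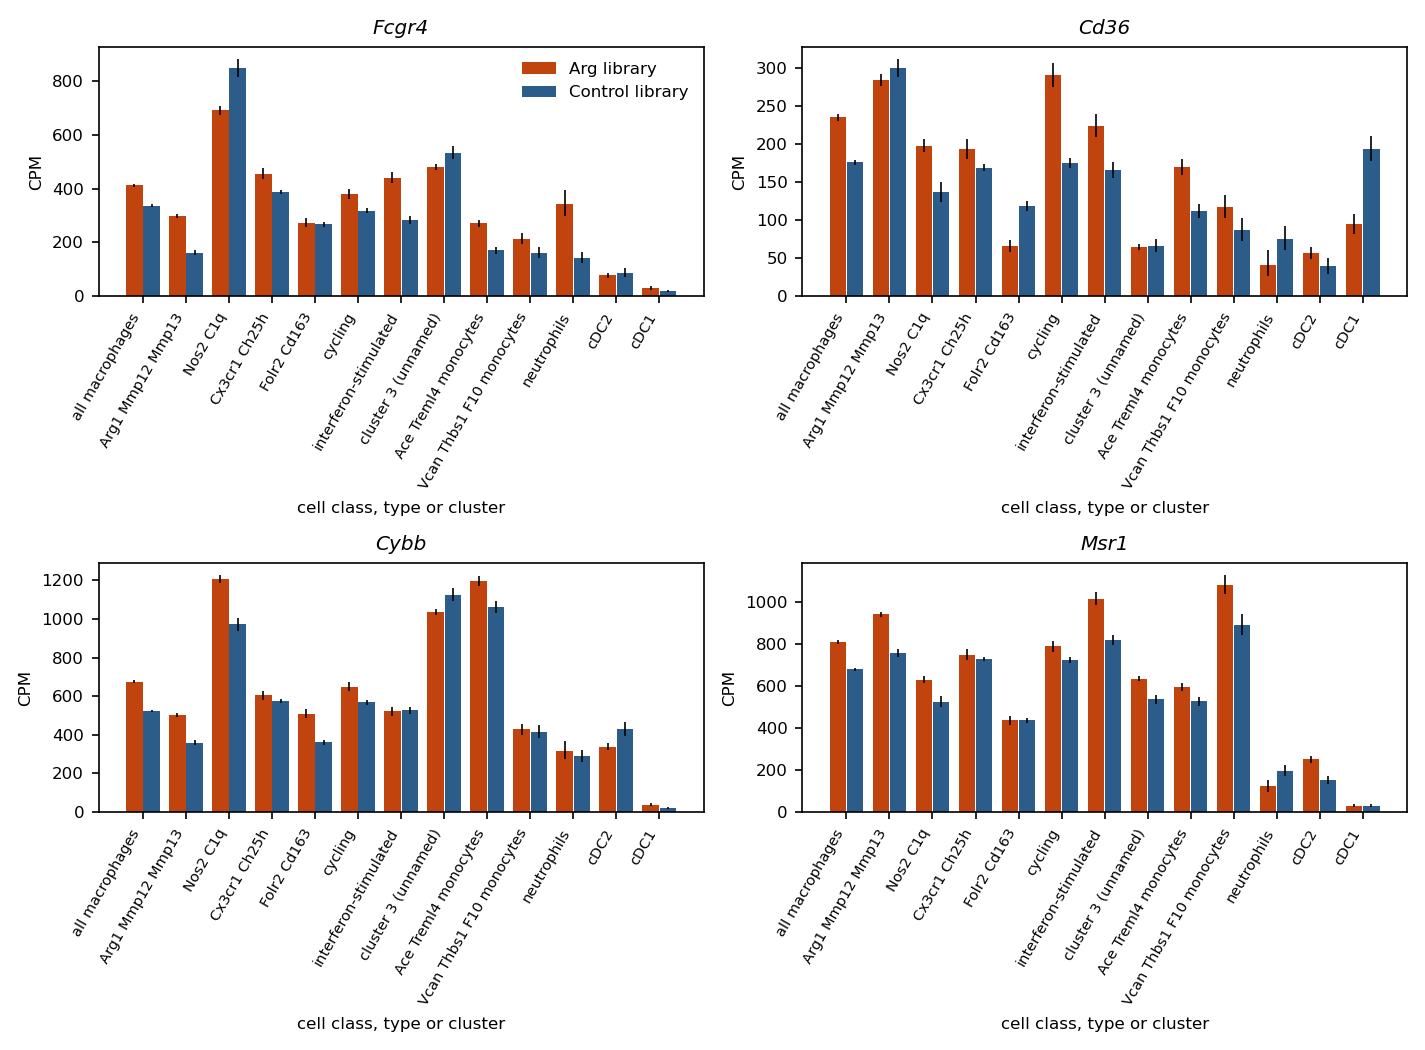
Levels (CPM, bars from 0) of Fcgr4, Cd36, Cybb and Msr1 in macrophages, their types, the unnamed cluster 3, monocyte types, neutrophils, cDC2 and cDC1 in the Arg and Control libraries, with exact Poisson 95% intervals that cover counting error only. Fcgr4 is higher in Arg in the Arg1 Mmp12 Mmp13 type (299 against 161 CPM) and lower in the Nos2 C1q type (692 against 850 CPM), and Cd36 is lower in Arg cDC1 (94.1 against 193 CPM).

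In cDC1, 2 of 29 measured members passed 1.5-fold, Cd36 and Cybb, where 6.88% of 7426 genes did. The members' median log2 ratio was 0.02 against 0.00 over all genes. Clec9a (275 and 325 CPM), Wdfy4 (918 and 903 CPM) and Rab43 (508 and 478 CPM) had log2 ratios of -0.23, 0.02 and 0.09.

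Cd36 was lower in Arg cDC1, at 0.487-fold (0.414 to 0.570) of Control. It was lower in each cDC1 cluster: 88.0 and 168 CPM in cluster 11.2, 95.5 and 229 CPM in cluster 11.5, and 103 and 172 CPM in cluster 11.6, with no overlap of the counting intervals within a cluster. The thinned share of cDC1 with a UMI was 10.9% (14 of 129, 6.06 to 17.5) in Arg and 30.5% (47 of 154, 23.4 to 38.4) in Control. Macrophage markers, which summed to 341 CPM in Arg and 545 CPM in Control cDC1, moved in the same direction, and their part in the difference was not tested. With every cell weighted equally the log2 ratio was -0.55 in place of -1.001, just short of 1.5-fold.

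Elsewhere Cd36 differed in both directions. In neutrophils, where 25% of 6266 genes passed 1.5-fold, it was also lower in Arg (log2 ratio -0.812, and -0.93 to -0.21 over 8 alternatives). It was past 1.5-fold higher in Arg in cycling macrophages (290 and 175 CPM, 1.66-fold, 1.55 to 1.77) and lower in Folr2 Cd163 macrophages (65.4 and 118 CPM, 0.552-fold, 0.480 to 0.633). At a coarser clustering the log2 ratio in the cycling type was 0.36, and with every cell weighted equally that in the Folr2 Cd163 type was -0.50, both short of 1.5-fold. In those types 4.52% of 7810 and 9.52% of 7886 genes passed 1.5-fold. In the Arg1 Mmp12 Mmp13 type it was at 284 and 300 CPM. Lnpep also passed in the Folr2 Cd163 type (121 and 79.1 CPM).

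Cybb was higher in Arg cDC1 by 1.98-fold (1.40 to 2.81), from 89 and 57 UMIs in all. The difference came mainly from cluster 11.6 (64.6 and 26.8 CPM), while cluster 11.2 had 29.9 and 27.0 CPM. The thinned share went the other way (2.33% and 3.25%), and with doublets kept the log2 ratio was -0.09, so no direction is read from it.

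Short of 1.5-fold, the small SEC61 subunits were higher in Arg cDC1. Sec61g was at 655 and 437 CPM (1.498-fold, 1.39 to 1.62, log2 0.58 after adding 5 CPM) and Sec61b at 737 and 575 CPM (1.28-fold, 1.197 to 1.37). Sec61g was higher in each of the 3 clusters, with 657 and 430, 756 and 394, and 602 and 485 CPM. Sec61a1, the pore subunit, was at 46.4 and 47.6 CPM. In macrophages Sec61g was at 525 and 500 CPM and Sec61b at 500 and 575 CPM. Both were also higher in Arg in plasmacytoid dendritic cells, with 1001.5 and 841 CPM of Sec61g and 1216.5 and 1034.3 CPM of Sec61b.

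In other classes few members passed. In cDC2 only Msr1 did (252 and 152 CPM, log2 0.71, of 28 measured, where 7.58% of 7269 genes did), and with doublets kept its log2 ratio was -0.06. In plasmacytoid dendritic cells Ncf1 was lower in Arg (424 CPM, 396 to 454, against 724 CPM, 681 to 770), and in 41.1% against 63.5% of thinned cells. Ifi30 was higher there (397 and 260 CPM), as were Lrp1 and Tfeb at under 30 CPM, which made 4 of 30 members where 8.02% of 7959 genes passed. T cells had less Ncf1 in Arg as well (7.61 and 23.3 CPM, log2 -1.17). Plasmacytoid markers summed to 594 and 416 CPM in T cells. However, 1 of them, Siglech, was lower in Arg, as Ncf1 was (0.459 and 1.48 CPM, from 7 and 28 UMIs). In plasmacytoid dendritic cells themselves Siglech was at 1516 and 1396 CPM. The part of plasmacytoid RNA in the Ncf1 value was not tested. With doublets kept the log2 ratio of Ncf1 in T cells was -0.33. In NK cells none of 26 measured members passed, where 1.56% of 8034 genes did.

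In tumour epithelial cells 6 of 24 measured members were past 1.5-fold higher in Arg (Cybb, Ncf4, Rac2, Msr1, Fcgr1 and Fcgr4), where 2.7% of 7859 genes were. All 6 were below 30 CPM, and macrophage markers summed to 481 CPM in Arg and 326 CPM in Control in these cells. In the unnamed cluster 8, 3 of 22 measured members (Cybb, Ncf4 and Fcgr4) were past 1.5-fold higher in Arg at under 25 CPM, where 3.06% of 7773 genes passed either way. Whether RNA from macrophages entered these counts was not tested.

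**Figure D5:**
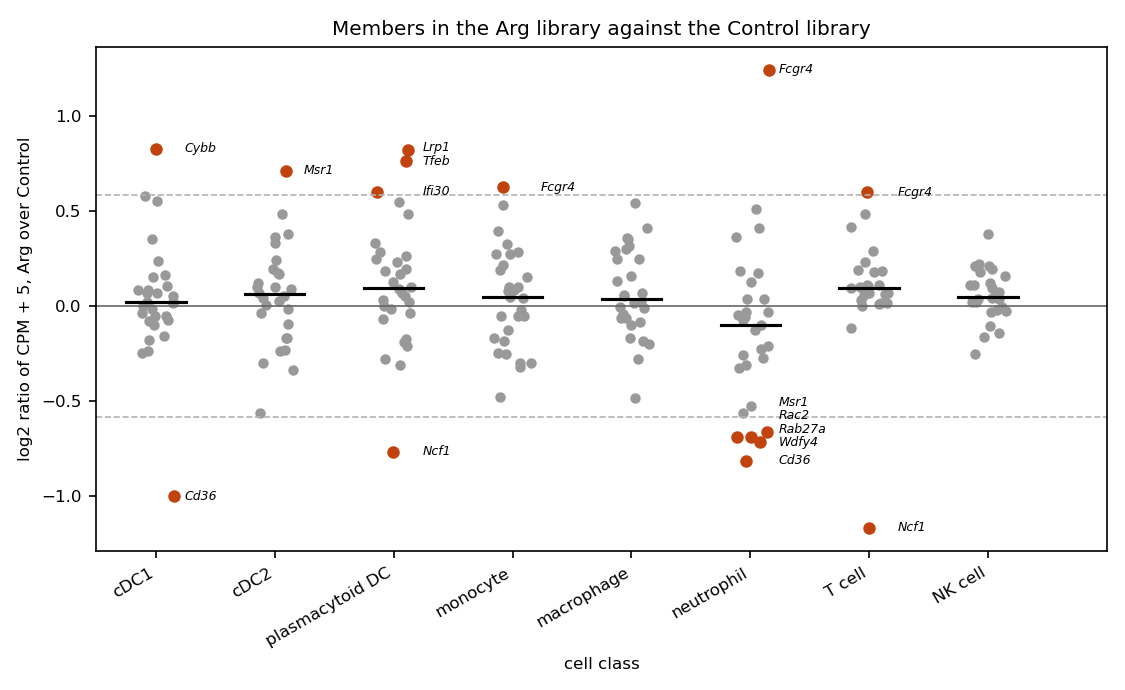
Log2 ratio of Arg over Control (vertical axis, from CPM + 5) of each measured member (points) in 8 cell classes, with the median as a black bar, dashed lines at 1.5-fold and the members past them named in orange. Medians lie between -0.10 (neutrophils) and 0.10 (T cells), no member passes in macrophages or NK cells, and Cd36 in cDC1 and Fcgr4 in neutrophils are furthest from 0 in the dendritic and granulocyte classes.

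Of 69 measured genes of the wider list, 51 were higher in Arg and 18 lower in macrophages, with a median log2 ratio of 0.14 against 0.00 over all genes. The 6 past 1.5-fold, all higher, were a share near the 8.8% of all genes that passed. The 5 furthest apart were Atp6v0d2, a subunit of the proton pump (42.3 and 11.1 CPM, log2 1.56), Clec4n, which encodes Dectin-2 (697 and 336 CPM, 1.04), the SNARE gene Stx3 (58.7 and 32.4 CPM, 0.77), the inhibitory Fc receptor gene Fcgr2b (1088 and 678 CPM, 0.68) and Mitf, a relative of TFEB (137 and 84.1 CPM, 0.67). Of 11 acidification and lysosome genes 10 were higher in Arg, with a median of 0.39. Ratios of the wider list in macrophages were not recomputed at 1 common mix of clusters, so the part of makeup in them was not tested. In cDC1 the 5 furthest apart were the Fc receptor gene Fcgr3 (56.4 and 25.7 CPM, 0.999), Lgmn (62.0 and 129 CPM, -0.998), Clec4n (31.2 and 14.05 CPM, 0.93), the lipopolysaccharide co-receptor gene Cd14 (96.2 and 55.9 CPM, 0.73) and the inhibitory lectin gene Clec12a (95.8 and 161 CPM, -0.72). Fcgr3, Clec4n, Cd14 and Lgmn were each more than 2-fold lower in cDC1 than in macrophages, and what part of their cDC1 levels was free RNA was not tested.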

How the data were processed

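The deposited matrices hold raw UMI counts per gene and barcode. Cell Ranger 7.0.1 is named in the file headers. The submitters' processing notes list version 2.2.2 and GRCm38, which leaves the version unresolved. No source used here says if introns were included in the counting. Barcodes with at least 500 UMIs, 200 genes and at most 10% mitochondrial UMIs were kept (13875 Arg, 13487 Control). Scrublet (expected share 8%) removed 947 (6.825%) and 751 (5.568%) doublets. Cells were clustered with scanpy 1.11.5 and leidenalg 0.10.2 (2000 variable genes without the members and the wider list, 30 components, 20 neighbours, resolution 1), without batch correction. Clusters whose second marker set stood out were clustered again.

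A cluster took the name of its highest marker set if the mean log2 fold over other clusters was at least 0.5 and 3 markers were each in at least 20% of cells. Both cutoffs were chosen with the clusters in view. The names mean "like". Counts were summed per class and library. Classes with at least 100 cells in each library were compared between libraries, and past 1.5-fold (between libraries) or past 2-fold in both libraries (between classes) was called. The scripts were checked on simulated counts. The members and gene lists were chosen with earlier results of these data known. All members were named, and of the wider list the 5 most extreme genes in each of 3 comparisons. Of 80 wider genes 79 were found (Clec7a was not). RefSeq promoters matched 24 members.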

Additional observations from a re-analysis of the deposited data

Results flagged for a closer look

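Among immune classes and types, 2 members were past 1.5-fold higher in Arg in 1 and past 1.5-fold lower in another, which drew attention to them. The difference between classes was not tested, since each has 1 library per group. Cd36 had log2 ratios of Arg over Control of 0.712 in cycling macrophages, -1.001 in cDC1, -0.812 in neutrophils and -0.810 in Folr2 Cd163 macrophages. Msr1, a scavenger receptor gene, had 0.713 in cDC2 and -0.660 in neutrophils, and each of these changed sign under another setting.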

How the results depend on the processing

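No paired analysis was possible because each group had 1 library. The 3 members higher and 6 lower in cDC1 than in macrophages were 3 or 4 and 5 or 6 over 13 alternatives. Of the recomputed main counts and medians, 25 moved and 137 did not. Among the recomputed ratios and shares of single genes, 173 moved, 10 changed sign and 521 did neither. In monocytes the count past 1.5-fold was 0 with a pseudocount of 20 CPM, no cell filter, doublets kept, resolution 0.5 or 2, or members allowed among variable genes, and 2 with cells weighted equally. In cDC1 it was 1 with the 20 CPM pseudocount, a minimum of 50 CPM or doublets kept, and 4 with a stricter or no cell filter. In cDC2 it was 2 with no low-value filter, doublets kept, resolution 2, members allowed, centring within libraries or cells weighted equally, and 3 with a stricter or no cell filter. In macrophages it was 1 with the stricter filter, and the median log2 ratio was 0.0856 (no cell filter), 0.0799 (resolution 0.5), 0.0927 (members allowed) and 0.108 (1 common mix).

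Ratios that changed sign were Msr1 in neutrophils, at 0.860 (no cell filter), 0.138 (doublets kept), 1.003 (resolution 0.5), 0.336 (resolution 2), 0.291 (members allowed) and 0.282 (centred), Msr1 in cDC2 at -0.065 (doublets kept) and -0.049 (resolution 2), Cybb in cDC1 at -0.091 (doublets kept), and Fcgr4 in interferon-stimulated macrophages at -0.149 (resolution 2). The causes were not tested. Adding cluster 11.7 and the common mixes of cDC1 and monocytes were chosen after seeing the data. Neutrophils had the fewest UMIs of the classes compared between libraries (566755 and 1172631), which limits the precision of their ratios.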

Other observations

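Most acidification and lysosome genes of the wider list were higher in Arg within each macrophage type taken alone. The share of all genes higher in Arg was not counted, so these counts are to be read beside the medians. In the Arg1 Mmp12 Mmp13 type, 59 of 68 measured genes of the whole wider list and 20 of 28 members were also higher. Of those measured, 11 of 11 were higher in Arg1 Mmp12 Mmp13 macrophages (median log2 ratio 0.22, against 0.13 over all genes), 11 of 11 in the Cx3cr1 Ch25h type (0.35 against 0.05), 10 of 11 in the Nos2 C1q type (0.34 against -0.02), 11 of 12 in the Folr2 Cd163 type (0.20 against 0.09), 10 of 10 in the cycling type (0.28 against 0.00) and 10 of 10 in the interferon-stimulated type (0.38 against 0.05). Outside macrophages, 9 of 10 were higher in Vcan Thbs1 F10 monocytes (0.17 against 0.05), 8 of 10 in cDC1 (0.28 against 0.00) and 5 of 10 in Ace Treml4 monocytes (0.06 against -0.00). They were 6 of 10 in cDC2 (0.08 against 0.01), 6 of 10 in plasmacytoid dendritic cells (0.05 against 0.07) and 6 of 11 in neutrophils (0.03 against -0.05). In T cells 7 of 9 were higher (0.09 against -0.00), in NK cells 6 of 9 (0.09 against 0.02) and in cluster 3 7 of 10 (0.13 against 0.03). Median depth in the Cx3cr1 Ch25h type was 4777 UMIs in Arg and 11603 in Control, and its part in these values was not tested.

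Expression of the proton pump subunit gene Atp6v0d2, which is known for its place in osteoclasts and macrophages, differed most among them. In the whole macrophage class it stood at 42.3 CPM in Arg and 11.1 CPM in Control, 3.82-fold (3.52 to 4.16). This is a pooled value of a class whose makeup differed between the libraries. Arg1 Mmp12 Mmp13 macrophages were 45.0% of it in Arg and 13.2% in Control, and Cx3cr1 Ch25h macrophages 12.9% and 40.4%. The part of makeup in the Atp6v0d2 ratio was not tested.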
